A study of Homo sapiens with 8 samples.

Results

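The transcripts of 10 chemokines, CXCL1, CXCL2, CXCL3, CXCL5, CXCL8, CXCL10, CXCL11, CCL2, CCL5 and CCL20, were followed in PC3 cells. The genes were picked by symbol, and each matched 1 of the 58735 genes in the deposited table. PC3 is an established human prostate cancer line. One group of 4 libraries, siPRMT7, came from PC3 cells labelled as PRMT7 knockdown, and the other, siCtrl, of 4 libraries, came from PC3 cells labelled wild type. Both groups received synthetic RNA by lipofection and were cultured for a further 48 h before poly(A) RNA was sequenced. Titles carry the prefix si and library names the prefix sh, and nothing in the labels tells whether the replicates were separate cultures. The p-values therefore measure the spread between these libraries, which may be technical.

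Chemokines are small secreted proteins that draw leukocytes along a concentration gradient by acting on G protein-coupled receptors. CXCL1, CXCL2, CXCL3, CXCL5 and CXCL8 attract neutrophils through CXCR2, and CXCL8 acts through CXCR1 as well. With CCL20 they are classic targets of the transcription factor NF-kB, induced by interleukin 1 and tumour necrosis factor. CXCL10 and CXCL11 attract T cells through CXCR3 and are classic interferon-induced genes, and CCL5, which attracts T cells and monocytes, is induced by interferon regulatory factors together with NF-kB. CCL2 attracts monocytes through CCR2. The NF-kB type (6 genes) and the interferon type (3 genes) are set side by side below, with CCL2 apart.

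The genes sit in a few clusters. CXCL8, CXCL1, CXCL5, CXCL3 and CXCL2 lie within 358788 bases of chromosome 4 (GRCh38), from 73740506 to 74099293. CXCL10 (76021117 to 76023497) and CXCL11 (76033682 to 76041415) are neighbours on the same chromosome, 10184 bases apart. CCL2 (34255218 to 34257203) and CCL5 (35871491 to 35880793) are on chromosome 17 and CCL20 (227805739 to 227817564) is on chromosome 2. None of the 10 genes shares an exonic base with another annotated gene.

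The stretches of promoter upstream of the neutrophil-attracting genes are shown because these neighbours share an NF-kB motif and include both genes whose groups did not overlap and CXCL5, whose mean was lower. Each line gives offsets -100 to -41 from the RefSeq start of transcription, on the gene's strand, from RefSeq GRCh38.p14, and capitals mark matches to the kappa B letters GGNNNTTCC on either strand.
CXCL1 (chr4:73869293-73869352, plus strand): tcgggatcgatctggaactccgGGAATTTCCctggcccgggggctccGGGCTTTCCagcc
CXCL2 (chr4:74099236-74099295, minus strand): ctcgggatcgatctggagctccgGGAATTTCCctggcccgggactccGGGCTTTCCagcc
CXCL3 (chr4:74038730-74038789, minus strand): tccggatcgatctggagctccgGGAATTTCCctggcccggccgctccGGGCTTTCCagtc
CXCL5 (chr4:73998718-73998777, minus strand): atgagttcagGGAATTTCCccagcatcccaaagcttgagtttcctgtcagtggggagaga
CXCL8 (chr4:73740469-73740528, plus strand): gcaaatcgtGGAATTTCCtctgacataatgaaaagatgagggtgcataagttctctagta
All 5 hold GGAATTTCC, and CXCL1, CXCL2 and CXCL3 hold GGGCTTTCC as well. Without gaps, this stretch was 91.7% identical between CXCL1 and CXCL3 and 80.0% between CXCL1 and CXCL2 at a shift of 1 base, against 31.7% between CXCL5 and CXCL8.

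The full windows of the neighbouring interferon type genes run from 250 bases before to 50 bases after the start. They are shown because the groups of libraries overlapped for CXCL11 and not for CXCL10. The difference between these genes was not tested. Capitals mark kappa B matches and, in CXCL10, the letters of an interferon-stimulated response element (ISRE), GAAA, any 2 bases and GAAA again.
CXCL10 (chr4:76023448-76023747, minus strand): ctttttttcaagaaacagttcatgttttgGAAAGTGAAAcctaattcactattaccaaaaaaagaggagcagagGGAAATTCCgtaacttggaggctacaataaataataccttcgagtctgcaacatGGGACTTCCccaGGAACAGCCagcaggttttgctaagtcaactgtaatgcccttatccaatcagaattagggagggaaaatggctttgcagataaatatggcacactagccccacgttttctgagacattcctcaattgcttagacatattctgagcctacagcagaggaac
CXCL11 (chr4:76036021-76036320, minus strand): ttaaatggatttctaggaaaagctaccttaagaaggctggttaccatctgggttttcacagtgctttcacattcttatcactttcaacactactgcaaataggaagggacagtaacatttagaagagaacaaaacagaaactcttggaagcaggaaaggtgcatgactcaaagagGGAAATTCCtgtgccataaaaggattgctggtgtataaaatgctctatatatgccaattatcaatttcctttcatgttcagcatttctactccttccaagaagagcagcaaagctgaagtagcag
The ISRE letters were found in CXCL10 alone of the 8 members with a promoter entry, from -221 to -212. They occur in 3.57% of the 35116 promoters of the same length. Kappa B letters were found in all 8, against 20.1% of those promoters, with 3 matches in CXCL10 and 1 each in CXCL11, CXCL5, CXCL8 and CCL20. The AP-1 letters TGANTCA, present in 7.71% of promoters, occurred in CXCL8 and CXCL11. A match is a string of letters, not a bound site, and CCL2 and CCL5 are named only. The windows of CXCL11 (76036021 to 76036320) and CCL20 (227813592 to 227813891) lie inside the annotated genes. Those genes begin upstream, at 76041415 and 227805739 on their strands, and the stretches before those outer starts were not searched.

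**Figure D1:**
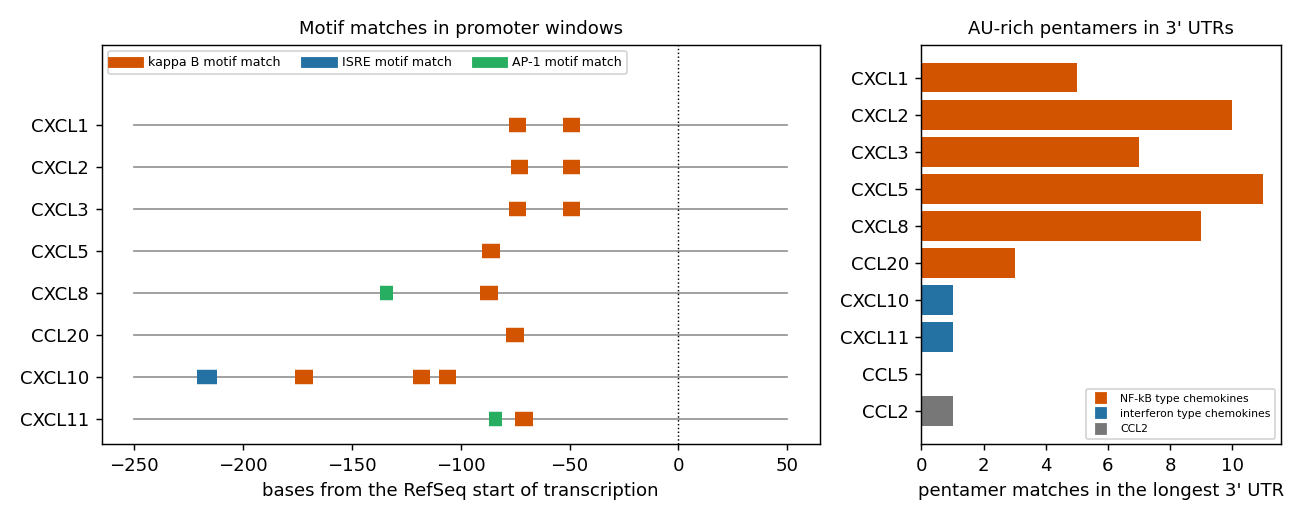
Left, positions of kappa B, ISRE and AP-1 letter matches relative to the RefSeq start of transcription (x axis, bases) in the 8 promoter windows. Right, number of AU-rich pentamers in the longest annotated 3' UTR of each member (x axis, count), which runs from 3 to 11 in the NF-kB type and from 0 to 1 in the interferon type and CCL2.

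The types had different counts of a transcript feature that the selection did not use. The pentamer ATTTA, the core of AU-rich elements bound by decay factors such as tristetraprolin, occurred 11 times in the longest 3' UTR of CXCL5, 10 times in CXCL2, 9 times in CXCL8, 7 times in CXCL3, 5 times in CXCL1 and 3 times in CCL20. It occurred once each in CXCL10, CXCL11 and CCL2 and 0 times in CCL5. At least 1 match was found in 67.6% of the 19145 genes with an annotated 3' UTR, and at least as many as in CXCL5 in 10.7%. That share was 12.4% for CXCL2, 14.5% for CXCL8, 20.3% for CXCL3, 28.6% for CXCL1 and 41.3% for CCL20. These counts grow with the length of the UTR, which ran from 473 bases in CCL2 to 1995 in CXCL5.

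Libraries held 14526030 to 15724862 fragments, rebuilt from the deposited FPKM (fragments scaled by gene length and library size). PRMT7 itself, the arginine methyltransferase that was targeted, had 4.62, 4.31, 5.01 and 4.82 FPKM in the libraries labelled siPRMT7, against 5.25, 4.86, 5.10 and 5.25 FPKM in siCtrl libraries. The groups overlapped, and the two-sided exact permutation p was 0.0571, where 4 against 4 libraries can give no less than 0.0286. Any direction given for the libraries labelled siPRMT7 below therefore goes with a PRMT7 transcript level 0.917 times that of siCtrl. Replicate 2 of siPRMT7 stood apart on the first principal component (28.4, with the other 7 libraries from -11.9 to 7.36). Keratin genes of the epithelial line were abundant (KRT19, 286 to 379 FPKM over all libraries), and KLK3 was at 0 in every library, a known feature of PC3 cells. Of 12 leukocyte markers 0 reached the level tested, CD3E and MS4A1 were at 0 in every library and CD14, a monocyte marker, was the highest. CD14 had 0.812 to 1.27 FPKM in siPRMT7 and 0.490 to 0.928 FPKM in siCtrl libraries, a mean ratio of 1.40, with 3 of 4 siPRMT7 libraries above every siCtrl library, and its part in the chemokine results was not tested. The 12 summed to 1.48 to 2.09 FPKM in siPRMT7 and 1.57 to 1.91 FPKM in siCtrl libraries. Of 7 fibroblast markers COL1A1 was the highest (6.13 to 7.53 FPKM over all libraries), and of 6 endothelial markers PECAM1 (2.83 to 3.64 FPKM); 2 and 1 of these lists were tested and 0 passed. The fibroblast markers summed to 8.56 to 10.1 FPKM in siPRMT7 and 8.37 to 9.85 FPKM in siCtrl libraries, and the endothelial ones to 3.59 to 4.33 FPKM in siPRMT7 and 4.06 to 4.35 FPKM in siCtrl libraries. In RNA of a whole culture, more transcript per cell and more cells with the transcript cannot be told apart.

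Most of these chemokines had somewhat more transcript in the libraries labelled siPRMT7, and none passed the test across all genes. CXCL8, CXCL2 and CXCL3 of the NF-kB type and CXCL10 and CCL5 of the interferon type were above every siCtrl library in all 4 siPRMT7 libraries, with mean ratios from 1.23 for CXCL8 to 2.003 for CXCL10. CXCL1, CXCL5 and CCL20 of the NF-kB type, CXCL11 of the interferon type and CCL2 overlapped between groups. In limma, on log2(FPKM + 1) over the 13436 genes with at least 1 FPKM in at least 4 libraries, 0 of the 9 members tested had an adjusted p under 0.05, as 0.0149% of all genes tested did. At an unadjusted p under 0.05 there were 5 members higher and 0 lower, where 7.67% of all genes were higher and 5.49% lower. The same 5 did not overlap between groups, against 4.14% of all genes with siPRMT7 above siCtrl and 4.43% with it below. CCL2 was too low to be tested. CCL20 entered the test with exactly 4 libraries at or above 1 FPKM, 3 of them siPRMT7, and CXCL10 with 6, all 4 siPRMT7 and 2 siCtrl libraries. For both the filter was met through the group with the higher values, so these counts describe the members and support nothing further, and 4 of the 5 are left without CXCL10.

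**Figure D2:**
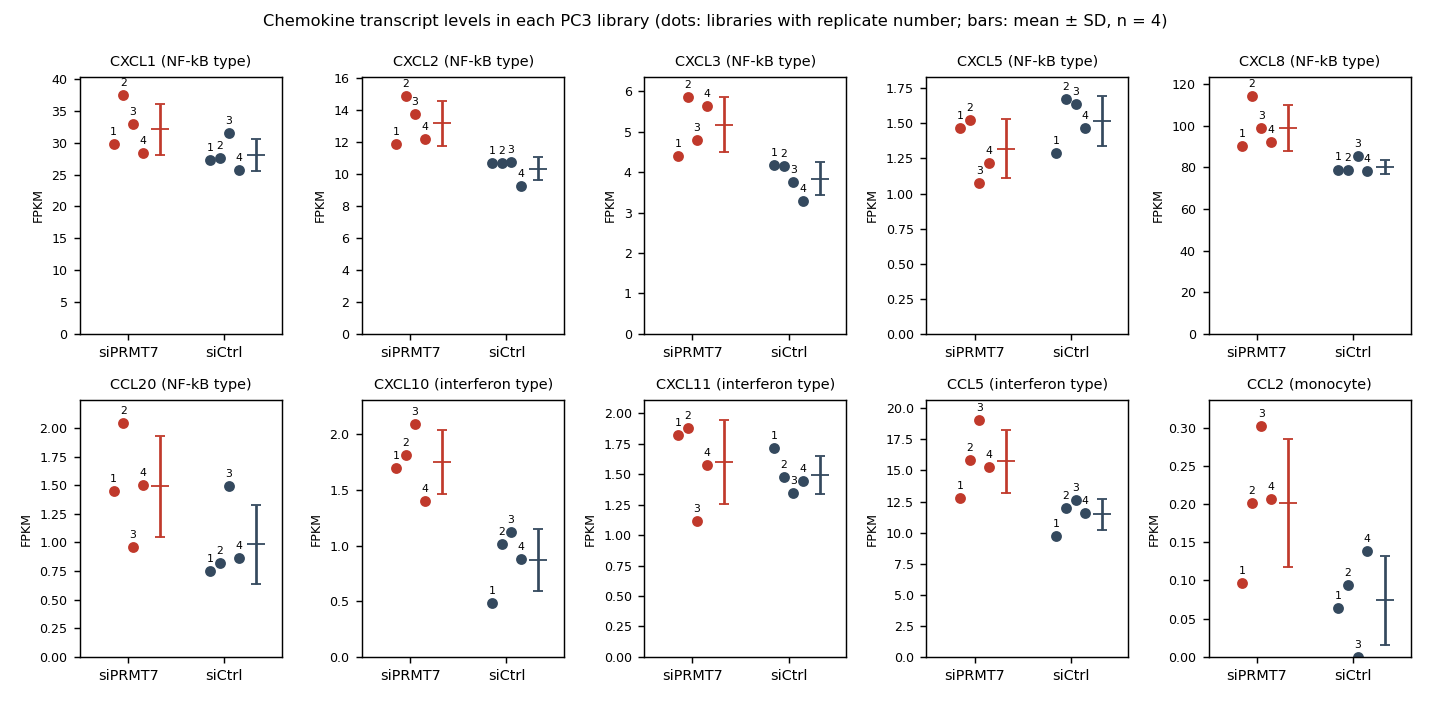
FPKM (y axis, from 0) of each chemokine in the 4 siPRMT7 and 4 siCtrl libraries; dots are libraries with their replicate number, and bars are mean ± SD (n = 4). The groups do not overlap for CXCL2, CXCL3, CXCL8, CXCL10 and CCL5.

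CXCL8, the interleukin 8 gene, was the most abundant member, at 56.6 to 58.8% of the summed FPKM of the 10 genes in every library. It had 90.2, 115, 99.1 and 92.1 FPKM in siPRMT7 libraries, against 79.0, 78.8, 85.3 and 78.2 FPKM in siCtrl libraries. All siPRMT7 libraries were above all siCtrl libraries, with replicate 2 the highest. The mean was 98.97 ± 11.1 FPKM in siPRMT7 and 80.3 ± 3.32 FPKM in siCtrl libraries (SD, n = 4 each). The log2 fold change in limma was 0.29 (95% interval 0.12 to 0.46, adjusted p = 0.205), and the exact permutation p was 0.0286. Between 2579 and 3912 fragments lay behind each value, a counting error of at most 1.97%. Without siPRMT7 replicate 2 the log2 fold change was 0.22 (limma adjusted p = 0.150).

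CXCL1, CXCL2 and CXCL3 are close copies that signal through the same receptor. Of the 50-base words in their annotated transcripts, 4.81% in CXCL1, 12.5% in CXCL2 and 6.01% in CXCL3 occurred in another member, so how fragments from those stretches were assigned is uncertain, since the counting settings were not given in the sources used here. CXCL1 had 29.9, 37.4, 32.9 and 28.4 FPKM in siPRMT7 libraries, against 27.3, 27.6, 31.6 and 25.8 FPKM in siCtrl libraries. Its groups overlapped, since siCtrl replicate 3 was above siPRMT7 replicates 1 and 4. Its log2 fold change in limma was 0.19 (95% interval -0.020 to 0.39, adjusted p = 0.413), and 0.11 without siPRMT7 replicate 2.

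CXCL2 had 11.9, 14.9, 13.8 and 12.2 FPKM in siPRMT7 libraries, against 10.7, 10.7, 10.7 and 9.24 FPKM in siCtrl libraries. The groups did not overlap (exact permutation p = 0.0286), and the limma log2 fold change was 0.32 (95% interval 0.14 to 0.49, adjusted p = 0.193). CXCL3 had 4.41, 5.85, 4.80 and 5.65 FPKM in siPRMT7 libraries, against 4.17, 4.14, 3.75 and 3.29 FPKM in siCtrl libraries. Its groups did not overlap either (exact permutation p = 0.0286), although siPRMT7 replicate 1 was close to siCtrl replicate 1. The limma log2 fold change of CXCL3 was 0.35 (95% interval 0.14 to 0.56, adjusted p = 0.216).

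Ratios of 3 pairs among these neighbours are described here, and how often ratios of other gene pairs overlap was not worked out. The ratio of CXCL8 to CXCL1 in FPKM was 3.01 to 3.24 in siPRMT7 and 2.70 to 3.03 in siCtrl libraries. The ratio of CXCL2 to CXCL1 was 0.397 to 0.430 in siPRMT7 and 0.340 to 0.390 in siCtrl libraries, without overlap and not tested. CXCL1 and CXCL2 share 60 words of 50 bases, so how fragments were assigned between them is uncertain. The ratio of CXCL3 to CXCL2 was 0.349 to 0.463 in siPRMT7 and 0.349 to 0.391 in siCtrl libraries, which overlapped. CXCL8 made up 64.8 to 65.3% of the summed FPKM of the NF-kB type in siPRMT7 and 63.4 to 65.8% in siCtrl libraries.

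CXCL5, which lies between CXCL1 and CXCL3 on the chromosome and carries the same GGAATTTCC in its promoter, was the member whose mean was lower. It had 1.47, 1.52, 1.08 and 1.21 FPKM in siPRMT7 libraries, against 1.29, 1.68, 1.64 and 1.47 FPKM in siCtrl libraries. The groups overlapped, with siPRMT7 replicates 3 and 4 below every siCtrl library. The log2 fold change in limma was -0.12 (95% interval -0.33 to 0.095, adjusted p = 0.579). On the log2(FPKM + 1) scale this interval lay below those of CXCL2, CXCL3 and CXCL8, but it is narrowed at such a low level. With a pseudocount of 0.1 the limma value of CXCL5 was -0.19 with a standard error of 0.156, against a standard error of 0.0949 in the main fit. The difference between genes was not tested. Without siPRMT7 replicate 3 the log2 fold change was -0.068 (limma adjusted p = 0.793). Values rest on 41 to 68 fragments, a counting error of up to 15.6%. The ratio of CXCL8 to CXCL5 was 61.4 to 92.1 in siPRMT7 and 47.0 to 61.2 in siCtrl libraries, a pair chosen after the values were seen and not tested.

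CCL20, the ligand of CCR6, had 1.45, 2.05, 0.961 and 1.50 FPKM in siPRMT7 libraries, against 0.750, 0.824, 1.49 and 0.865 FPKM in siCtrl libraries. Its groups overlapped, because siPRMT7 replicate 3 was low and siCtrl replicate 3 high. The limma log2 fold change was 0.33 (95% interval -0.032 to 0.69, adjusted p = 0.409), and 19 to 49 fragments lay behind each value.

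CXCL10 had the largest fold change of the members tested. It had 1.70, 1.81, 2.09 and 1.40 FPKM in siPRMT7 libraries, against 0.482, 1.01, 1.12 and 0.879 FPKM in siCtrl libraries. The groups did not overlap (exact permutation p = 0.0286), and siCtrl replicate 1 was well below the other 3 siCtrl libraries. The mean was 1.75 ± 0.289 FPKM in siPRMT7 and 0.874 ± 0.280 FPKM in siCtrl libraries (SD, n = 4 each), a ratio of 2.003. On the log2(FPKM + 1) scale, which understates differences at such levels, the limma fold change was 0.56 (95% interval 0.26 to 0.86, adjusted p = 0.189). With no filter on low values the limma adjusted p was 0.405. The fragments were few, at 31, 32, 37 and 24 in siPRMT7 and 9, 19, 20 and 15 in siCtrl libraries, with a counting error of 33.3% at the lowest. Without siCtrl replicate 1 the log2 fold change was 0.45 (limma adjusted p = 0.298).

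CXCL11, its neighbour and fellow ligand of CXCR3, had 1.82, 1.88, 1.12 and 1.58 FPKM in siPRMT7 libraries, against 1.72, 1.47, 1.35 and 1.45 FPKM in siCtrl libraries. The groups overlapped, and siPRMT7 replicate 3, the highest library for CXCL10, was the lowest of all for CXCL11. The limma log2 fold change was 0.05 (95% interval -0.20 to 0.30, adjusted p = 0.853), and it was -0.0029 without siPRMT7 replicate 2 and -0.041 with library weights. The ratio of CXCL10 to CXCL11 was 0.931, 0.961, 1.88 and 0.885 in siPRMT7 and 0.281, 0.685, 0.832 and 0.608 in siCtrl libraries. These ratios did not overlap between groups, but the pair was taken up after its values were seen, so no test is given.

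CCL5, also known as RANTES, had 12.8, 15.9, 19.0 and 15.3 FPKM in siPRMT7 libraries, against 9.74, 12.0, 12.6 and 11.6 FPKM in siCtrl libraries. The groups did not overlap (exact permutation p = 0.0286), although siPRMT7 replicate 1 was close to siCtrl replicate 3. The mean was 15.7 ± 2.56 FPKM in siPRMT7 and 11.5 ± 1.24 FPKM in siCtrl libraries (SD, n = 4 each). The limma log2 fold change was 0.42 (95% interval 0.16 to 0.67, adjusted p = 0.219), and it was 0.41 without siPRMT7 replicate 2. CCL5 had the highest level of the interferon type, above CXCL10 and CXCL11 in every library.

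CCL2 was close to the limit of detection. It had 3, 6, 9 and 6 fragments in siPRMT7 libraries, against 2, 3, 0 and 4 in siCtrl libraries, where 3 fragments was taken as the floor. The levels were 0.0972 to 0.302 FPKM in siPRMT7 and 0 to 0.139 FPKM in siCtrl libraries. The groups overlapped, and no fold is given.

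**Figure D3:**
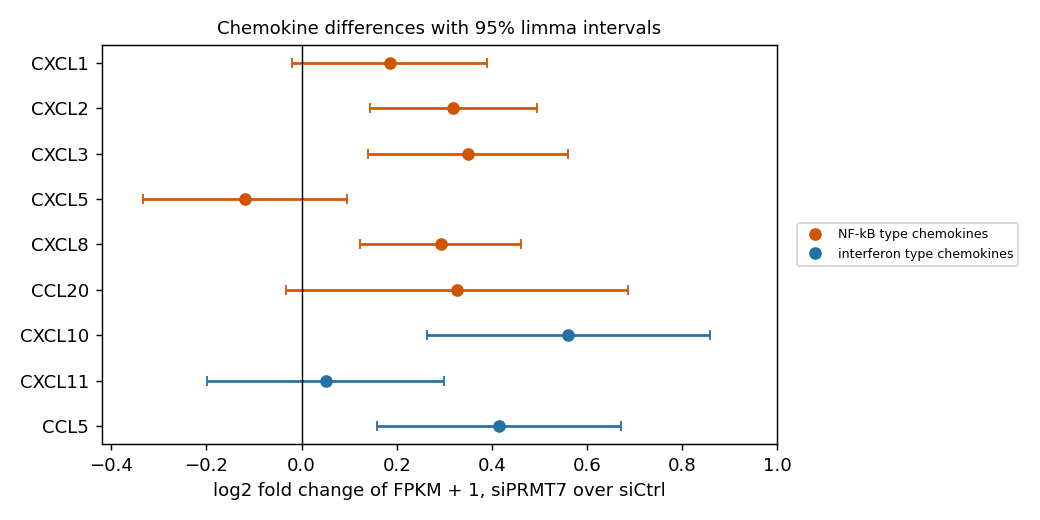
Log2 fold change of FPKM + 1 (x axis), siPRMT7 over siCtrl, with 95% intervals from limma, for the 9 members tested; colours give the type. The intervals of CXCL2, CXCL3, CXCL8, CXCL10 and CCL5 lie above 0, and those of CXCL1, CXCL5, CCL20 and CXCL11 span it.

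Set side by side, the types overlapped in their differences. The median log2 fold change was 0.31 over the 6 NF-kB type genes and 0.42 over the 3 interferon type genes, and it was -0.0015 over all genes tested. The interferon type median is the value of CCL5, with CXCL11 at 0.05 and CXCL10 at 0.56. The medians were the same with no filter on low values. The genes were picked with earlier results known, so the order of the medians supports nothing further. With every library brought to one total (TPM) the medians were 0.27 and 0.38, and with quantile normalization 0.26 and 0.40. Each type had members both inside and outside the group of genes that did not overlap, with 3 of 6 in the NF-kB type and 2 of 3 in the interferon type. Over all genes tested, 4.14% did not overlap with siPRMT7 above siCtrl and 4.43% with it below. The interferon type count includes CXCL10, which met the filter through the group with the higher values, so these counts describe the members only. The mean deviation of the NF-kB type from its siCtrl mean was 0.15, 0.42, 0.15 and 0.18 in siPRMT7 and -0.035, 0.013, 0.12 and -0.094 in siCtrl libraries. That of the interferon type was 0.29, 0.42, 0.40 and 0.27 in siPRMT7 and -0.14, 0.056, 0.080 and 0.0020 in siCtrl libraries. Both class means were higher in each siPRMT7 library than in any siCtrl library, a description of genes picked with earlier results known.

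Both class means were highest in replicate 2 of siPRMT7, though the single genes differed in where they peaked. Replicate 2, the library that stood apart, was the highest of its group for each of the 6 NF-kB type genes and for CXCL11. Replicate 3 was the highest for CXCL10, CCL5 and CCL2. The class means were apart by 0.0087 (NF-kB type minus interferon type) in replicate 2 and by -0.25 in replicate 3. Without replicate 2 the NF-kB type median was 0.22 and the interferon type median 0.41. The part of that library in the NF-kB type values was not tested beyond leaving it out.

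**Figure D4:**
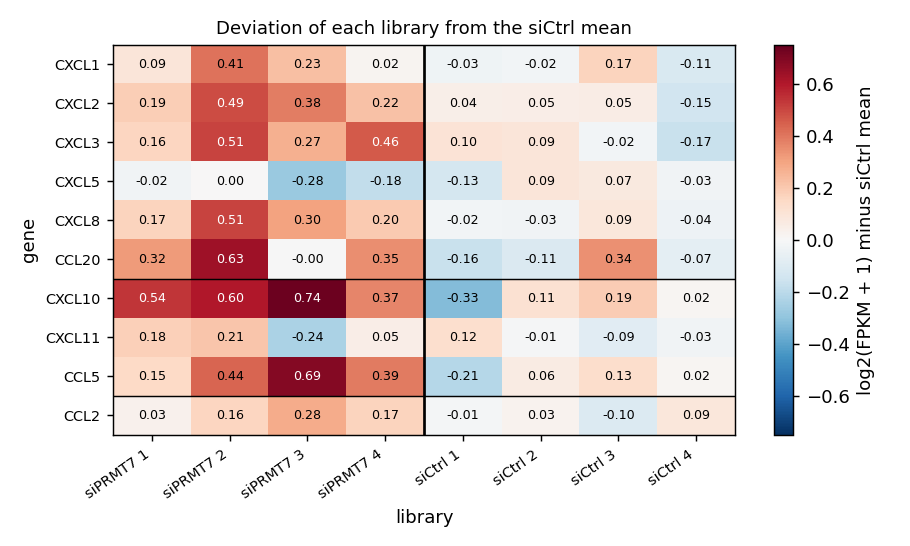
Log2(FPKM + 1) of each chemokine (rows) minus its siCtrl mean in each library (columns, siPRMT7 left of the line); red is above and blue below that mean. CXCL8 reaches 0.51 in siPRMT7 replicate 2, and CXCL10 reaches 0.74 and CXCL11 -0.24 in siPRMT7 replicate 3.

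The order of levels was nearly the same in both groups. In siPRMT7 libraries it ran CXCL8, CXCL1, CCL5, CXCL2, CXCL3, CXCL10, CXCL11, CCL20, CXCL5 and CCL2. In siCtrl libraries it ran CXCL8, CXCL1, CCL5, CXCL2, CXCL3, CXCL5, CXCL11, CCL20, CXCL10 and CCL2. CCL5 and CXCL2 overlapped in both groups, as did each neighbour in the order among CXCL10, CXCL11, CCL20 and CXCL5, all between 0.482 and 2.09 FPKM. CXCL10 thus stood above the other 3 of that set by its mean in siPRMT7 and below them in siCtrl libraries.

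**Figure D5:**
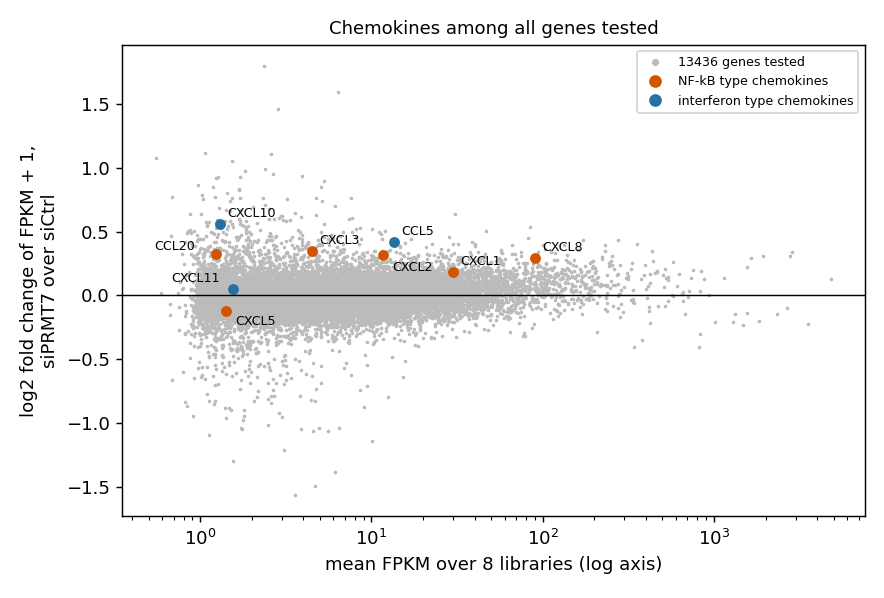
Log2 fold change of FPKM + 1 (y axis), siPRMT7 over siCtrl, against mean FPKM over the 8 libraries (x axis, log scale) for all 13436 genes tested (grey) and the 9 chemokines tested (coloured by type). CXCL8 lies at 0.29 and CXCL10 at 0.56.

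Among the 10933 other protein-coding genes tested, the profiles most like CXCL8 over the 8 libraries were those of NDUFC1 (root mean square difference 0.0295 in log2), PMAIP1 (0.0365) and B2M (0.0380). B2M, the light chain of HLA class I, had 632 ± 64.1 FPKM in siPRMT7 and 526 ± 24.4 FPKM in siCtrl libraries (SD, n = 4 each). The profiles most like CXCL10 were those of C15orf48 (0.135), HRASLS2 (0.149) and CCL5 (0.157). CCL5 was thus the third closest gene to CXCL10, ahead of CXCL11. These profiles include the difference between the groups, and CXCL10 rests on 9 to 37 fragments per library. The order of closeness therefore supports nothing further, and shared regulation was not tested.

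Of 34 other chemokines 4 were expressed enough to be tested and 14 had 0 fragments in every library. With limma 0 of the 4 passed over all genes, and 0 were under an unadjusted p of 0.05. CXCL6, a neutrophil attractant encoded in the same cluster, had 8.46, 12.6, 10.7 and 10.6 FPKM in siPRMT7 libraries, against 9.72, 9.80, 10.0 and 8.59 FPKM in siCtrl libraries. Its groups overlapped, with replicate 2 again the highest of siPRMT7. CCL26, an eosinophil attractant acting on CCR3, averaged 25.9 ± 3.92 FPKM in siPRMT7 and 22.4 ± 2.57 FPKM in siCtrl libraries (SD, n = 4 each). CXCL16, a transmembrane ligand of CXCR6, averaged 5.63 ± 0.472 FPKM in siPRMT7 and 5.17 ± 0.589 FPKM in siCtrl libraries. The limma adjusted p was 0.474 for CCL26 and 0.563 for CXCL16.

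Transcripts of the matching receptors were not detected or scarce. CXCR1, CXCR2 and CCR6, the receptors of CXCL8, its relatives and CCL20, had 0 fragments in all 8 libraries, which allows at most 0.207 ppm of a library. Of 23 receptor genes, CCRL2 and CXCR4 were tested. CCRL2, an atypical receptor, averaged 4.36 ± 0.427 FPKM in siPRMT7 and 3.83 ± 0.349 FPKM in siCtrl libraries, and CXCR4, the receptor of CXCL12, averaged 2.86 ± 0.313 FPKM in siPRMT7 and 3.24 ± 0.533 FPKM in siCtrl libraries (SD, n = 4 each). The limma adjusted p was 0.428 for CCRL2 and 0.572 for CXCR4.

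No regulator upstream of either type passed the test over all genes. Of 14 NF-kB factors and inhibitors tested, 0 passed over all genes, and the median log2 fold change was 0.12. At an unadjusted p under 0.05, where 7.67% of all genes tested were higher and 5.49% lower, 5 were higher and 0 lower. TNFAIP3, an inhibitor of the pathway, averaged 17.8 ± 0.520 FPKM in siPRMT7 and 15.4 ± 0.294 FPKM in siCtrl libraries (SD, n = 4 each, limma adjusted p = 0.143). RELB, an NF-kB subunit, averaged 11.7 ± 0.638 FPKM in siPRMT7 and 9.63 ± 0.850 FPKM in siCtrl libraries (SD, n = 4 each, limma log2 fold change 0.25, adjusted p = 0.208). TNIP1, an inhibitor that works with TNFAIP3, averaged 49.3 ± 0.752 FPKM in siPRMT7 and 44.6 ± 1.31 FPKM in siCtrl libraries (limma log2 fold change 0.14, adjusted p = 0.211).

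Of 13 interferon signalling factors, all tested, 0 passed over all genes, and the median log2 fold change was 0.11. By direction alone 10 were higher and 3 lower, and only the 3 with the smallest limma p are named here. By the same unadjusted count 6 were higher and 0 lower, against 7.67% and 5.49% of all genes tested. IRF1, a factor of CXCL10 induction, averaged 6.81 ± 0.511 FPKM in siPRMT7 and 5.56 ± 0.156 FPKM in siCtrl libraries (limma log2 fold change 0.25, adjusted p = 0.182). IRF7 averaged 133 ± 9.15 FPKM in siPRMT7 and 110 ± 2.14 FPKM in siCtrl libraries (limma log2 fold change 0.28, adjusted p = 0.143). USP18, a feedback inhibitor of the interferon receptor, averaged 27.3 ± 0.840 FPKM in siPRMT7 and 21.9 ± 1.20 FPKM in siCtrl libraries (limma log2 fold change 0.30, adjusted p = 0.104).

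Among 10 regulators of chemokine mRNA decay, 0 passed and 1, ZFP36, was higher at an unadjusted p under 0.05, against 7.67% of all genes tested. ZFP36 encodes tristetraprolin, which binds AU-rich elements and shortens the life of CXC chemokine transcripts. It had 20.2 to 20.7 FPKM in siPRMT7 and 16.4 to 17.6 FPKM in siCtrl libraries, without overlap (limma log2 fold change 0.24, adjusted p = 0.113). ZC3H12A, the ribonuclease regnase 1, averaged 10.4 ± 0.264 FPKM in siPRMT7 and 9.25 ± 1.005 FPKM in siCtrl libraries (SD, n = 4 each, limma adjusted p = 0.380). HNRNPD, the AU-rich element binding protein AUF1, averaged 22.6 ± 2.59 FPKM in siPRMT7 and 21.2 ± 1.13 FPKM in siCtrl libraries (SD, n = 4 each, limma adjusted p = 0.618). Of 14 upstream cytokines and receptors tested, 0 passed over all genes and 1, IL32, was higher at an unadjusted p under 0.05, against the same 7.67%. IL32, a cytokine that induces chemokines, averaged 2.85 ± 0.438 FPKM in siPRMT7 and 2.25 ± 0.113 FPKM in siCtrl libraries (SD, n = 4 each, limma adjusted p = 0.294). IL6ST, the shared signalling receptor of the interleukin 6 family, averaged 24.0 ± 1.91 FPKM in siPRMT7 and 26.6 ± 1.57 FPKM in siCtrl libraries, and LIF, a cytokine of that family, averaged 39.6 ± 2.38 FPKM in siPRMT7 and 36.8 ± 0.710 FPKM in siCtrl libraries (SD, n = 4 each). The limma adjusted p was 0.384 for IL6ST and 0.396 for LIF.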

How the data were processed

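The authors deposited one table of FPKM values for 8 PC3 libraries. Per the submitters' processing notes, cutadapt 2.5, HISAT2 2.1.0 and featureCounts 1.6.3 were used. Those notes name a mouse build, whereas all 58735 genes match GENCODE release 29 on GRCh38 in start, end and strand. Strand use in counting was not given in the sources used here. FPKM times gene length was a whole multiple of 1 step per library for 100% of values above 0 (tolerance 0.01 fragments), so fragments were rebuilt. The library sizes behind FPKM were already scaled by median ratios.

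Genes reaching 1 FPKM in 4 or more of the 8 libraries were tested with limma 3.58.1 in R 4.3.3 on log2(FPKM + 1). The test used a variance trend, was two-sided, and was Benjamini-Hochberg adjusted over 13436 genes at 0.05. The code was also run on simulated data with a spread set in advance. That run cannot tell how well small differences are found in these libraries. Exact permutation tests used 70 assignments (scipy 1.17.1). Counting errors and floors cover counting error only. Alternatives were other pseudocounts, filters, scalings and variance models, library weights, voom, a replicate block and leaving out each library. Members and gene lists were chosen with earlier results of these data known. Named genes were the members, PRMT7, up to 3 genes with the smallest p per pathway list, the highest gene of each marker list (for the epithelial list KLK3 besides, and for the others the genes at 0) and the 3 closest profiles. Same-numbered libraries were not treated as pairs in the main fit. Some results are not reported here.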

Additional observations from a re-analysis of the deposited data

Results flagged for a closer look

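In 6 of 74 groups of 4 libraries looked at, 1 library lay far from the other 3 relative to the group's range, where chance gives about 1 in 20. CXCL2 had 9.24 FPKM in siCtrl replicate 4, against 10.7 FPKM in each of the other 3. CXCL8 had 85.3 FPKM in siCtrl replicate 3, with the others at 78.2 to 79.0 FPKM. CCL20 had 1.49 FPKM in siCtrl replicate 3, with the others at 0.750 to 0.865 FPKM. CCL26 had 18.6 FPKM in siCtrl replicate 4, with the others at 23.4 to 24.0 FPKM. SDC1, a heparan sulfate proteoglycan that binds chemokines, had 40.4 FPKM in siPRMT7 replicate 4, with the others at 37.1 to 37.5 FPKM. DPP4, a protease that trims chemokines, had 12.9 FPKM in siPRMT7 replicate 2, with the others at 15.1 to 15.6 FPKM.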

How the results depend on the processing

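In every one of the alternatives run, limma called 0 members over all genes, and 8 of the 9 members tested kept their direction in each alternative that gave them a value. CXCL11 was the exception, at -0.041 with library weights and -0.0029 without siPRMT7 replicate 2, its lowest value without 1 library, the highest being 0.15 without siPRMT7 replicate 3. The lowest adjusted p over the alternatives was 0.0810 for CXCL8, 0.0917 for CCL5, 0.0918 for CXCL2, 0.0961 for CXCL3 and 0.108 for CXCL10. The log2 fold change of CXCL10 ran from 0.45 to 1.04, and it was 1.04 with voom, which adds less to low values, and 0.97 with a pseudocount of 0.1. That of CCL20 ran from 0.22 to 0.60 and that of CXCL5 from -0.20 with voom to -0.068 without siPRMT7 replicate 3. The count of all genes called, 2 as reported (1769 at an unadjusted p under 0.05), was 1 with a pseudocount of 0.1, 1 with quantile normalization, 58 with library weights, 12 with voom on rebuilt fragments and 5 with no filter. It was 2 without siPRMT7 replicate 2 or 4 and 0 without any 1 of the other 6 libraries. With the replicate block it was 0 in limma, with 1646 genes at an unadjusted p under 0.05. Same-numbered libraries deviated together by correlations of -0.0314 to 0.0613. No label gives a pairing, and these correlations cannot decide whether one exists, since a pairing may act on few genes. With the block the unadjusted limma p went from 0.00516 to 0.000205 for CCL5 and from 0.0718 to 0.0377 for CXCL1. It went from 0.00452 to 0.0106 for CXCL3 and from 0.0697 to 0.125 for CCL20, and 0 members were called. CXCL10, CCL20 and CCL2 are limited by depth, with under 50 fragments in each library.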

Other observations

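Genes that trim, cut or present chemokines at the cell surface had no common direction. Of 13 such genes 11 were tested, 4 were higher and 7 lower, with a median log2 fold change of -0.036, and limma called 0 over all genes and 1, GPC1, as higher at an unadjusted p under 0.05, against 7.67% of all genes tested. GPC1, a heparan sulfate proteoglycan, averaged 21.4 ± 0.449 FPKM in siPRMT7 and 19.7 ± 0.781 FPKM in siCtrl libraries (SD, n = 4 each, limma adjusted p = 0.310). SDC1 averaged 38.1 ± 1.55 FPKM in siPRMT7 and 40.6 ± 1.89 FPKM in siCtrl libraries (SD, n = 4 each, limma adjusted p = 0.444). DPP4, which removes the first residues of CXCL10 and CXCL11, averaged 14.8 ± 1.25 FPKM in siPRMT7 and 16.1 ± 1.10 FPKM in siCtrl libraries (SD, n = 4 each, limma adjusted p = 0.486).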
